A study of Mus musculus with 6 samples.

Results

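*Trav9-2* (TRAV9-2 in the IMGT nomenclature used in the lists) is a variable gene segment of the mouse T cell receptor α locus, and its rearrangements were followed here in pre-selection thymocytes of wild-type and SKG mice. The gene was chosen by its difference between the SKG and WT libraries in the share of joins to distal *Traj* segments, so every comparison of these libraries below is a description without a test. A sequence was a member when its V assignment listed only *Trav9-2*, with any allele, and its J assignment listed a single *Traj* gene. By this rule 210112 of the 1587280 sequences of the WT *Trav9* library and 83787 of the 739330 sequences of the SKG *Trav9* library were members, together 293899 of the 3675237 sequences of the series.

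The series held 6 libraries of *Trav* amplicons, 1 for each of the *Trav9*, *Trav11* and *Trav19* primers in each genotype. They were made from thymocytes sorted as double-positive for CD4 and CD8 and negative for TCRβ, CD69 and CD5. WT mice are labelled BALB/c, and SKG mice carried a spontaneous hypomorphic mutation in an SH2 domain of ZAP70, a tyrosine kinase that acts early in T cell receptor signalling. For comparisons of these genotypes, the paper's methods state that both came from a cross of SKG with BALB/cJ mice, after which the WT and SKG lines were kept apart for a further generation. RNA was reverse transcribed and amplified from the *Trav* segment to the constant region according to the paper's methods, whereas genomic DNA stands as the molecule in the labels. The age of the mice and the number of animals behind a library are not given in the sources used here, no other treatment is named for either group, and the lists hold V and J assignments alone, so the labelled cell type could not be checked against marker genes.

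Double-positive thymocytes assemble the α chain by cutting at recombination signal sequences and joining a *Trav* to a *Traj* segment. First joins take *Traj* segments at the upstream end of the array, which lie nearest to the *Trav* segments, and later rounds on the same allele replace them with joins of a *Trav* further upstream to a *Traj* further downstream until the cell is selected or dies. Because *Traj* numbers run down along the array, a low number marks a distal segment. A join is productive when it keeps the reading frame and has no stop codon.

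In the NCBIM37 assembly, which represents C57BL/6 and not BALB/c, *Trav9-2* is annotated as Gm16979 on the + strand of chromosome 14 at chr14:54210755-54211189. It has 2 exons, and the match to the *Trav9* primer lies in exon 2 at chr14:54211035-54211054, as 1 of 8 exact matches on the chromosome. The gene ends 563 kb upstream of *Traj61*, the first of 59 named *Traj* segments in an array of 63.8 kb. Between it and the array lies *Trav9-4*, 478 kb from *Traj61*, whereas *Trav9d-4*, *Trav9d-3* and *Trav9d-2* lie further upstream at 1171, 1234 and 1262 kb. No entry for *Trav9-3* was found in the tables used here.

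The bases that tell *Trav9-2* from its relatives in these amplicons are few, and they are shown because membership rests on them. The 134 bases that follow the primer in exon 2 are given 5′ to 3′ from NCBIM37. In the *Trav9-2* line, capitals mark the positions at which it differs from at least 1 of the other genes shown, and in the other lines capitals mark differences from *Trav9-2*.
Trav9-2 (chr14:54211055-54211188, + strand): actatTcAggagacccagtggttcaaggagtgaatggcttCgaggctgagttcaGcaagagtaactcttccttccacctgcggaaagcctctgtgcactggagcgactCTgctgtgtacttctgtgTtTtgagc
Trav9d-2 (chr14:53512159-53512292, + strand): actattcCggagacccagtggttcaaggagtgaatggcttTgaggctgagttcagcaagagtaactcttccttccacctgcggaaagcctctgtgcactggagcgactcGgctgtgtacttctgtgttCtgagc
Trav9d-3 (chr14:53540653-53540786, + strand): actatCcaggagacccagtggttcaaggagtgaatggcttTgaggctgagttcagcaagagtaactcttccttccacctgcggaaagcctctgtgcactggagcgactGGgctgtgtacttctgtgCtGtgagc
Trav9-4 (chr14:54296171-54296304, + strand): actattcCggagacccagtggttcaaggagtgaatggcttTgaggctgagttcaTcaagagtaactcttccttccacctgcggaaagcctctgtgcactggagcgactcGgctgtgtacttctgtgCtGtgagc
*Trav9-2* differed from at least 1 of these 3 genes at 8 positions and from all 3 at 3 positions. Its identity to *Trav9d-2* was 97.0%, with 4 differences, and its identity to *Trav9d-3* and to *Trav9-4* was 95.5%, with 6 differences each. *Trav9d-4* has 105 bases after the primer in this annotation and was not aligned. *Trav9-3*, the gene most often listed together with *Trav9-2*, had no entry, so the bases that separate these genes are not shown.

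The *Traj* segments on which the comparison below turns are shown with the 12 bases that encode the Phe-Gly-X-Gly motif in capitals, the conserved turn at the end of the third complementarity-determining region. The motif was searched on the strand of the genes and was found in 42 of the 59 named *Traj* segments of NCBIM37. The following segments had a higher share of *Trav9-2* joins in the SKG library.
Traj26 (chr14:54814165-54814224, + strand): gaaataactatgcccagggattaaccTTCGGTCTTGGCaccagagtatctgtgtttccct
Traj43 (chr14:54794417-54794473, + strand): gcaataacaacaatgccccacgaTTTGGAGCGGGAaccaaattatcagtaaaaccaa
Traj21 (chr14:54818465-54818521, + strand): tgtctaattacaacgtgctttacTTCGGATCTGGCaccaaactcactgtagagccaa
Traj18 (chr14:54820452-54820517, + strand): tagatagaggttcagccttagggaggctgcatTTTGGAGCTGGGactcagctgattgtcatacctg
Traj31 (chr14:54807570-54807626, + strand): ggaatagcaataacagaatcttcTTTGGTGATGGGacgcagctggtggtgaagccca
The following segments had a lower share in the SKG library.
Traj57 (chr14:54778180-54778244, + strand): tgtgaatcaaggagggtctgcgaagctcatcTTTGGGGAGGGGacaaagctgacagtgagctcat
Traj56 (chr14:54778938-54779000, + strand): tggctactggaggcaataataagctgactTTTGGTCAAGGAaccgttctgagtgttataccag
Traj9 (chr14:54829068-54829125, + strand): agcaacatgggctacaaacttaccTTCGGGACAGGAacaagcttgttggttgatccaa
Traj52 (chr14:54784991-54785056, + strand): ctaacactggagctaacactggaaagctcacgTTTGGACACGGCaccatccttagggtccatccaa
The upstream bases of each segment, before the capitals, vary among these segments in length and sequence and form part of the antigen-binding loop.

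Members made up 13.2% of the WT *Trav9* library and 11.3% of the SKG library, a difference of -1.90 percentage points (SKG minus WT). Before the rule was applied, 214514 WT and 85481 SKG sequences listed *Trav9-2* alone or with other genes. Of these, 4398 in WT (2.05%) and 1693 in SKG (1.98%) listed another gene as well, most often *Trav9-3* (2831 and 1231 sequences) or *Trav9-4* (1232 and 347 sequences). A further 4 WT sequences and 1 SKG sequence listed several *Traj* genes and were left out. At this depth, 3 productive sequences correspond to a share of 0.00212% in WT and 0.00496% in SKG. With 1 library per genotype there was no replicate check, and the 95% intervals (Wilson for a share, Newcombe for a difference) cover counting error only. The paper's methods name no tagging of molecules before amplification. Any copies of a join that an error made distinct would be counted apart. Such copies were not measured, and they would not be independent counts, as the intervals assume. Shares below are of distinct sequences, and correspond neither to cells nor to reads.

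Among productive *Trav9-2* sequences, distal segments, defined as *Traj1* to *Traj30*, made up a larger share in SKG than in WT. The distal share was 29.1% in WT (95% interval 28.9 to 29.4, 41170 of 141402 sequences) and 37.8% in SKG (37.4 to 38.2, 22869 of 60511 sequences). The difference was 8.68 percentage points (8.22 to 9.13), with an odds ratio of 1.48 (SKG over WT). With segments 1 to 20 as distal it was 4.87 points, and with segments 1 to 40 it was 13.4 points. Without any boundary, *Traj* numbers averaged 37.1 ± 16.4 in WT and 32.9 ± 15.7 in SKG (SD over sequences), a difference of -4.19 with a counting standard error of 0.0774. The median moved from segment 40 in WT to segment 34 in SKG. Both measures therefore placed the SKG joins of *Trav9-2* further down the array, and these are the values for which the gene was chosen.

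An unproductive join encodes no receptor chain, but any copies of productive joins that an error made unproductive were not told apart from such joins. Sequences not classed as productive were counted here as unproductive. Their distal share was 32.2% in WT (of 68710 sequences) and 40.6% in SKG (of 23276 sequences). The difference of 8.38 points (7.66 to 9.10) was close to that of the productive class, with overlapping intervals. *Traj* numbers of unproductive sequences averaged 35.9 in WT and 32.4 in SKG, a difference of -3.47. In both libraries productive joins were the less distal class, by -3.13 points in WT (productive minus unproductive, -3.56 to -2.71) and -2.83 points in SKG (-3.57 to -2.09).

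Use of the array by *Trav9-2* was lower in SKG over the upstream part and higher over the middle and the end. Segments *Traj61* to *Traj47* together took 38.9% of productive WT sequences and 24.4% of productive SKG sequences, a difference of -14.6 points (-15.0 to -14.1). Segments *Traj46* to *Traj31*, although counted as proximal, were higher in SKG, at 31.9% in WT and 37.8% in SKG, a difference of 5.88 points (5.43 to 6.34). The larger distal share was thus accompanied by a larger share of the middle of the array.

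In finer groups, the first segments of the array, *Traj61* to *Traj56*, took 16.1% of productive WT sequences and 8.19% of productive SKG sequences. *Traj55* to *Traj47* took 22.8% and 16.2%. Both upstream groups were lower in SKG (-7.96 and -6.60 points). *Traj46* to *Traj37* took 19.0% in WT and 22.5% in SKG, and *Traj36* to *Traj31* took 12.9% and 15.3%. Among the distal groups, *Traj30* to *Traj21* took 9.46% and 13.3%, and *Traj20* to *Traj11* took 10.2% and 14.02%. The end of the array, *Traj10* to *Traj1*, differed least (9.42% and 10.5%). In the unproductive class these 7 groups differed in the same directions, by -5.16, -6.87, 2.54, 1.11, 5.63, 0.391 and 2.35 points from the first to the last, and for *Traj20* to *Traj11* the interval of the difference included 0 (-0.101 to 0.892).

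*Trav9-2* sequences were found with 45 *Traj* segments in WT and with 44 in SKG. *Traj54*, a pseudogene by its IMGT class, had 1 WT sequence, and *Traj25*, an open reading frame by its class, had 22 WT and 7 SKG sequences, none of them productive. The remaining 43 segments had at least 50 productive sequences in each library. The 5 segments most used in WT were *Traj56* (7.55%), *Traj57* (5.49%), *Traj52* (5.05%), *Traj53* (4.68%) and *Traj49* (4.57%), all in the upstream part of the array. In SKG they held 4.09%, 2.21%, 3.04%, 3.25% and 3.21%. The 5 most used in SKG were *Traj31* (4.97%, against 3.04% in WT), *Traj40* (4.34%, against 3.69%), *Traj32* (4.34%, against 4.14%), *Traj56*, and *Traj37* (3.88%, against 3.18%). *Traj56* was the only segment in both lists, and use was spread more evenly in SKG, where the leading 5 held 21.6% of sequences against 27.3% in WT.

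**Figure D1:**
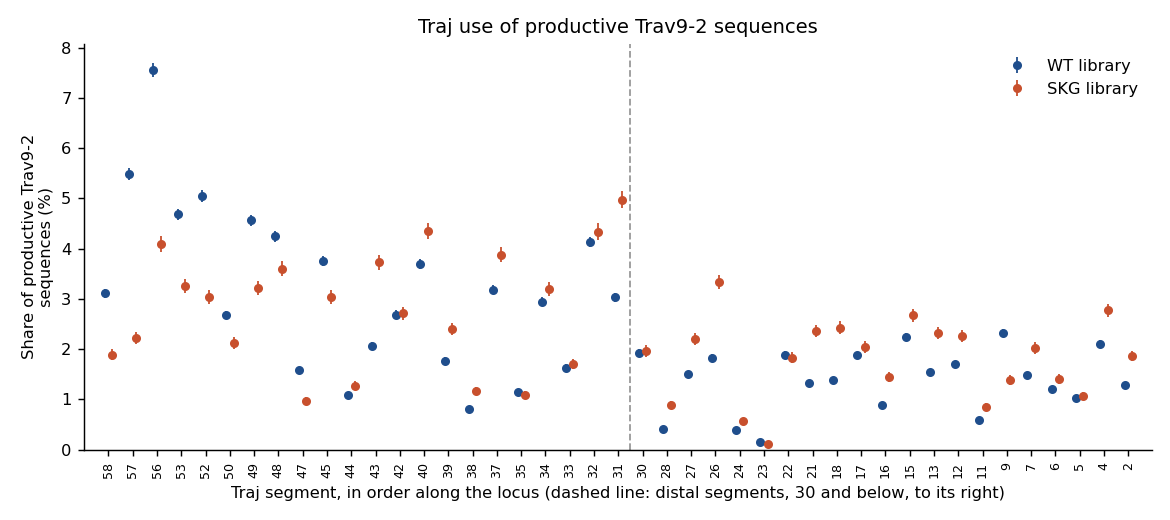
Share of productive *Trav9-2* sequences (%) that joined each *Traj* segment, in order along the locus, for the WT library (blue) and the SKG library (orange), with 95% Wilson intervals that cover counting error only; the 43 segments with 50 or more productive sequences per library are drawn. WT points lie above SKG points over the upstream segments, most of all at *Traj56* (7.55% against 4.09%) and *Traj57* (5.49% against 2.21%), and below them over most segments to the right of *Traj45*.

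Of these 43 segments, 29 had a higher share in SKG and 14 a lower share. Distal segments were higher at 18 and lower at 3 of 21, with a median log2 ratio (SKG over WT share, 0.5 added to each count) of 0.45, while proximal segments were higher at 11 and lower at 11 of 22, with a median of -0.04. By 1.5-fold or more, 8 *Trav9-2* segments (18.6%) were higher and 6 (13.95%) were lower, beside 8.27% higher and 9.84% lower among the 254 pairs of all *Trav9* genes and *Traj* segments. These pairs include those of *Trav9-2*. Counts of direction were not made for the other *Trav9* genes, whose distal shares were also higher in SKG. Since the gene was chosen on this contrast, nothing is read from these counts and shares.

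Where a segment reached 1% of productive joins in WT or SKG, the highest log2 ratios belonged to *Traj26* (0.86, SE 0.04, 1.83% in WT and 3.33% in SKG) and *Traj43* (0.85, SE 0.04, 2.07% and 3.72%). *Traj21* followed with 0.83 (SE 0.05, 1.33% and 2.36%), and *Traj18*, the segment used by the invariant α chain of iNKT cells, with 0.81 (SE 0.05, 1.39% and 2.43%). All but *Traj43* are distal segments. *Traj28*, which was under 1% in both libraries and is named here after its values were seen, had a ratio of 1.11 (0.410% and 0.886%).

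The lowest log2 ratio was that of *Traj57* (-1.31, SE 0.04), a segment near the start of the array. *Traj56* (-0.88, SE 0.03) and *Traj52* (-0.73, SE 0.04) were also upstream, whereas *Traj9* (-0.75, SE 0.06, 2.33% and 1.39%) lies near the far end. *Traj9* was thus an exception among distal segments, whose other 2 members with a lower productive share in SKG were *Traj23* (0.164% and 0.119%) and *Traj22* (1.89% and 1.83%). *Traj33*, the segment used by the invariant α chain of MAIT cells, took 1.63% in WT and 1.70% in SKG (log2 ratio 0.06, SE 0.05).

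The direction of the difference was shared by the productive and the unproductive class at 32 of the 43 segments. In the unproductive class 16 of 21 distal segments and 12 of 22 proximal segments were higher in SKG. The upstream segments with the lowest ratios were lower in both classes, with unproductive log2 ratios of -0.75 for *Traj57*, -0.58 for *Traj56* and -0.89 for *Traj52*, and *Traj9* was also lower in both, at -0.89. *Traj43* was higher in both, at 0.90, and *Traj26* had an unproductive ratio of 0.43.

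For several segments the classes differed in size of ratio. *Traj31*, the leading segment of productive SKG sequences, had an unproductive log2 ratio of 0.02 (4.42% in WT and 4.49% in SKG), against 0.71 in the productive class. *Traj18* and *Traj21* had unproductive ratios of 0.13 and 0.15, against productive ratios above 0.8. In the other direction, the unproductive share of *Traj22* was 0.985% in WT and 2.44% in SKG (log2 ratio 1.31), that of *Traj30* 1.01% and 2.49%, that of *Traj7* 0.908% and 2.23%, and that of *Traj6* 0.694% and 1.45%. Their productive ratios were smaller, at -0.04, 0.02, 0.45 and 0.23. The distal shares of the classes differed by similar amounts between the libraries, but partly over different segments.

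**Figure D2:**
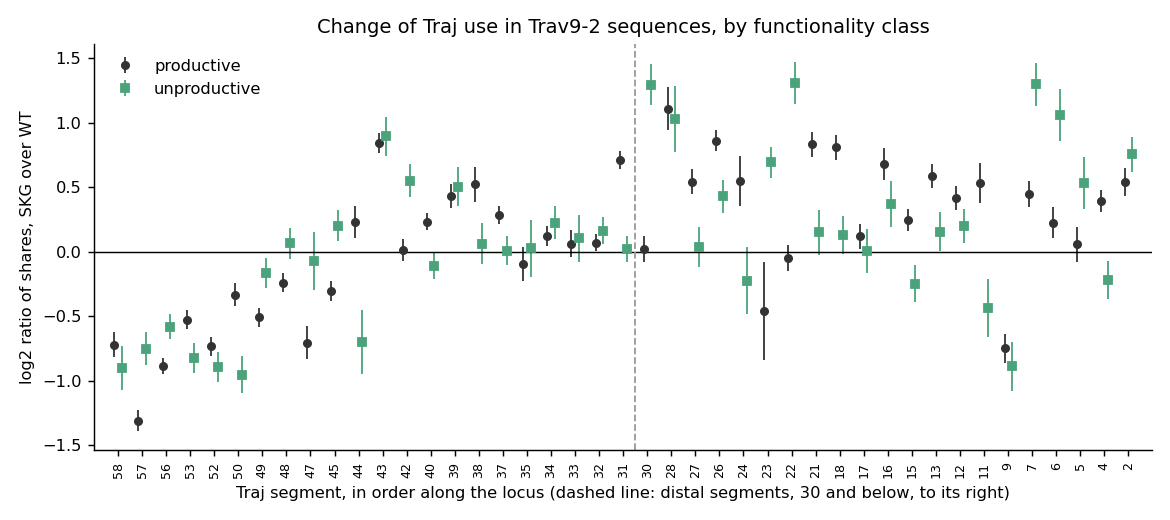
Log2 ratio of the share of *Trav9-2* sequences (SKG over WT) for each of 43 *Traj* segments in order along the locus, for productive (black circles) and unproductive (green squares) sequences, with 95% intervals from counting error. Ratios lie below 0 for the first upstream segments in both classes, down to -1.31 at *Traj57*, and the classes part at segments such as *Traj22*, *Traj30* and *Traj31*.

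The productive share of all *Trav9-2* sequences was 67.3% in WT (67.1 to 67.5) and 72.2% in SKG (71.9 to 72.5), a difference of 4.92 points (4.56 to 5.28). Distal joins were productive in 65.0% of WT and 70.7% of SKG sequences, and proximal joins in 68.3% and 73.1%. The productive share was thus higher in SKG in both parts of the array, by 5.74 and 4.86 points. With the SKG segments weighted by their WT shares, the difference between the libraries was 4.99 points. The lists differed in size (1587280 WT and 739330 SKG sequences). Whether this, or any copies made unproductive by an error, bears on the productive share was not tested.

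Segments differed widely in how often a *Trav9-2* join was productive. In WT the share was highest at *Traj22* (79.8%), *Traj30* (79.7%) and *Traj6* (78.1%), and lowest at *Traj23* (13.0%), *Traj38* (48.7%) and *Traj11* (50.5%). In SKG it was highest at *Traj44* (82.9%), *Traj43* (79.8%) and *Traj21* (79.7%), and lowest at *Traj23* (7.79%), *Traj2* (62.2%) and *Traj38* (62.3%). *Traj23* stood apart in both libraries, with 1785 WT and 924 SKG sequences behind its values.

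The productive share was higher in SKG at 32 of 43 segments, each with 200 or more sequences per library, and the median difference over the 43 was 6.15 points. The WT leaders *Traj22* and *Traj30* ran the other way, at 66.2% and 67.2% in SKG. *Traj31* was productive in 58.6% of WT and 74.2% of SKG sequences, *Traj11* in 50.5% and 71.6%, and *Traj18* in 59.6% and 74.9%. The differences at these segments lay outside the counting intervals, and no second library of either genotype gives a spread to set them against. Such a count of segments was not made for the other *Trav9* genes. Their productive shares differed by 7.31 to 9.03 points for *Trav9-4*, *Trav9d-4*, *Trav9-3* and *Trav9d-3*, and by -2.44 points for *Trav9d-2*. Nothing particular to *Trav9-2* is therefore read from the count of 32 segments.

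**Figure D3:**
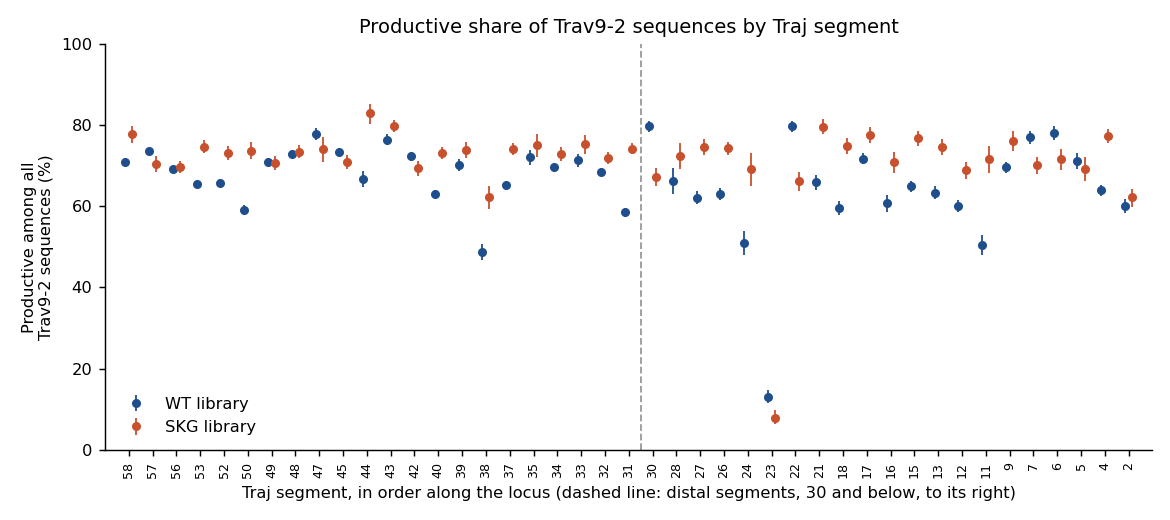
Productive sequences as a percentage of all *Trav9-2* sequences for each of 43 *Traj* segments in order along the locus, for the WT library (blue) and the SKG library (orange), with 95% Wilson intervals. SKG points lie above WT points at 32 segments, *Traj22* and *Traj30* show the reverse, and *Traj23* lies far below the rest in both libraries (13.0% and 7.79%).

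Segments that IMGT classes as open reading frames (*Traj4*, *Traj7*, *Traj25*, *Traj44* and *Traj47*) lack a feature thought to be needed for normal recombination, splicing or folding. They took 5.99% of WT and 6.73% of SKG *Trav9-2* sequences. Of these joins 70.4% were productive in WT and 75.5% in SKG, against 67.1% and 72.0% of joins to segments classed as functional.

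Every member in both libraries was called as allele 01 of *Trav9-2*, so no allele of the V gene distinguished the libraries. The *Traj* calls were of allele 01 in 91.2% of WT and 89.4% of SKG sequences and of allele 02 in 7.59% and 8.81%. The remaining 1.20% and 1.75% listed 2 alleles of the same segment. Most allele 02 calls were at *Traj32* (8529 WT and 3644 SKG sequences), *Traj31* (4993 and 2761) and *Traj35* (2248 and 864). Allele 02 made up 99.94% and 99.97% of calls at *Traj32*, and 99.3% and 99.1% at *Traj35*. The allele 02 totals thus depend on how often these segments were used. At *Traj31*, allele 02 was called in 68.1% of sequences in both libraries, allele 01 in 10.2% of WT and 12.5% of SKG sequences, and both alleles in 21.7% and 19.4%. More than 1 allele call was made at 10 segments, and the largest difference of a call between the libraries was 0.0352 to 3.90 points among them. It was largest at *Traj9*, where calls of allele 01 made up 95.8% of WT and 91.9% of SKG sequences. Calls of both alleles at *Traj9* made up 3.801% and 7.08%. Calls of both alleles at *Traj34* made up 1.19% and 3.35%. Allele 02 was called in 1.58% of WT and 0.111% of SKG sequences at *Traj21*, and in 0.782% and 2.23% at *Traj43*. These segments are named after their values were seen.

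The other *Trav9* genes of the same libraries serve as the comparison for *Trav9-2*. Of these, *Trav9-3*, *Trav9-4*, *Trav9d-2*, *Trav9d-3* and *Trav9d-4* had at least 1000 productive sequences in each library, and *Trav9-1* and *Trav9d-1* did not. In WT the distal share of *Trav9-2* (29.1%) lay above *Trav9-4* (15.2%) and *Trav9-3* (26.3%) and below *Trav9d-2* (57.2%), *Trav9d-3* (57.3%) and *Trav9d-4* (60.7%). In SKG the order was the same, but *Trav9-2* stood further from its neighbour: its distal share exceeded that of *Trav9-3* by 2.77 points in WT (2.47 to 3.06) and by 8.23 points in SKG (7.77 to 8.68). The intervals of *Trav9d-2* and *Trav9d-3* overlapped in both libraries.

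The distal share was higher in SKG for all 6 genes, by 3.22 points for *Trav9-3*, 3.99 for *Trav9-4*, 5.08 for *Trav9d-2*, 5.37 for *Trav9d-4*, 5.53 for *Trav9d-3* and 8.68 for *Trav9-2*, so that *Trav9-2* was 3.59 points above the median of the other 5. This excess depended on the boundary, at 2.71 points with segments 1 to 20 as distal and 8.35 points with segments 1 to 40. On the log2 odds ratio scale it had 0.56, against 0.23 to 0.41. The deficit over *Traj61* to *Traj47* in SKG was also greatest for *Trav9-2*, at -14.6 points against -1.69 to -9.68 in the others. In the unproductive class *Trav9-2* differed by 8.38 points and the others by 2.34 to 4.81. The rank of *Trav9-2* in the productive class is what selected it, the unproductive class comes from the same contrast and libraries, and no test of the difference between genes is given.

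**Figure D4:**
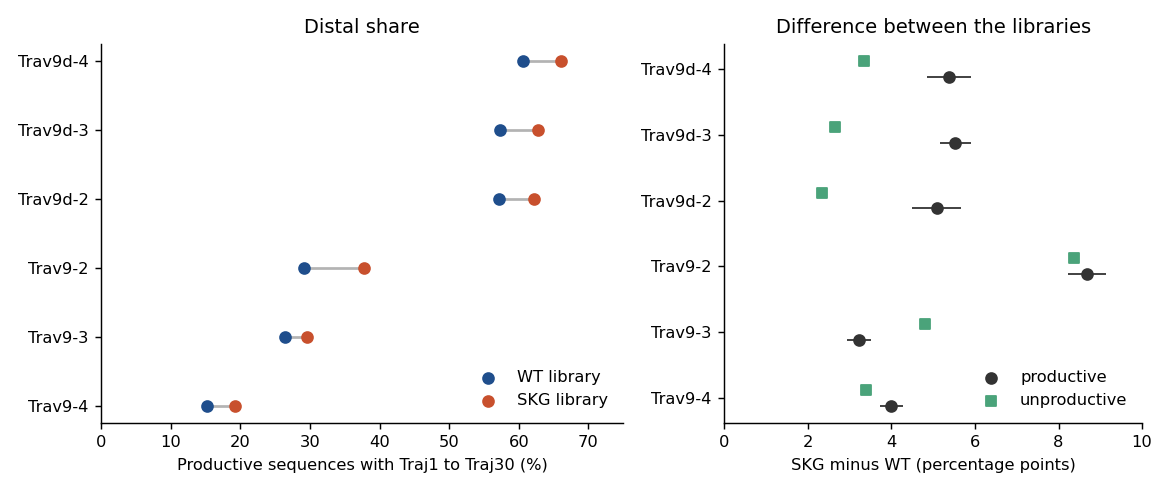
Left, distal share of productive sequences (*Traj1* to *Traj30*, %) for 6 *Trav9* genes in the WT library (blue) and the SKG library (orange). Right, the difference between the libraries (SKG minus WT, percentage points) for productive sequences (black circles, with 95% Newcombe intervals for counting error) and unproductive sequences (green squares, no interval drawn); *Trav9-2* has the greatest difference in both classes (8.68 and 8.38 points) from a distal share in the middle of the family.

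The productive share of *Trav9-2* did not follow its distal difference in rank. At 72.2% it was the highest of the 6 genes in SKG, where the others ranged from 65.7% to 70.4%, and in WT it was second to *Trav9d-2* (68.2%). Its difference of 4.92 points was the fifth of the 6, within a range of -2.44 to 9.03 among the others.

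Over segments that reached 1% of productive joins with either gene, the *Traj* shares most like those of *Trav9-2* belonged to *Trav9-3* and *Trav9-4* in both libraries. Spearman's rho was 0.83 with *Trav9-3* (38 segments) and 0.79 with *Trav9-4* (38 segments) in WT, and 0.81 and 0.72 (39 segments each) in SKG. *Trav19*, which lies near the array, had 0.77 in WT and 0.57 in SKG, whereas *Trav11* and the *Trav9d* genes ranged from -0.06 to 0.24. These coefficients run across segments that share a library and an amplification, or for *Trav11* and *Trav19* a genotype only, and describe likeness of pattern. They do not measure likeness of distal share. That of *Trav9-2* was above that of *Trav19* by 24.8 points in WT and 30.4 points in SKG.

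The WT and SKG profiles of *Trav9-2* itself did not share 16.4 points of use, counted as the sum of the amounts by which WT segments exceeded their SKG shares. For the other 5 genes this amount was 8.65 to 13.9 points. Within a library, *Trav9-2* and *Trav9-3* did not share 11.7 points in WT and 12.8 points in SKG. The *Trav9-2* profiles of the libraries thus lay further apart than *Trav9-2* and *Trav9-3*, the closest gene by this amount, within either library. They lay closer than *Trav9-2* and any of the remaining *Trav9* genes compared. With these genes the amount ran from 18.4 points (*Trav9-4* in WT) to 36.1 points (*Trav9d-4* in WT). The 16.4 points come from the contrast that selected the gene, so genotype is not weighed against V gene here.

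Some of the segments named above differed in the same direction in all 6 genes, while others did not. *Traj57*, *Traj56*, *Traj53* and *Traj52* had a lower share in SKG with all 5 other genes, and *Traj26*, *Traj21* and *Traj37* a higher share with all 5. *Traj43* (0.85 with *Trav9-2*) had log2 ratios from -0.50 to 0.39 with the others, *Traj31* (0.71) from -0.07 to 0.27, and *Traj9* (-0.75) from -0.26 to 0.81. For *Traj18* and *Traj33* the others had -0.21 to 0.40 and -0.31 to 0.62.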

How the data were processed

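The authors' methods name MiXCR, used to obtain clonal sequences from the read pairs, and cutadapt for primer trimming. The version of cutadapt was 1.13 in the submitters' processing notes, which also name the mm10 build. Removal of exact duplicates followed, and then IMGT/HighV-QUEST for the gene assignments. Each line of the deposited lists names a sequence and gives its V and J genes and its functionality class, with neither counts of reads nor coordinates. The highest sequence identifier was 2545199 in the WT *Trav9* list and 1504293 in the SKG *Trav9* list. The lines present equalled 62.4% and 49.1% of these numbers. Why identifiers are missing is not given, and whether their absence affects the shares was not tested. Duplicate removal evens out abundant rearrangements and would keep any copies that differ by an error. Junctions, nucleotide sequences of reads and read numbers were not analysed here.

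From the lists, sequences were counted per *Traj* segment. Shares have Wilson and differences Newcombe 95% intervals, and log2 ratios used 0.5 added to each count. No test was made, because *Trav9-2* was chosen by this contrast and there was 1 library per genotype. The gene, the segments and the groups were chosen with earlier results of these data known. Segments named are the 5 most used in each library, the 4 highest and 4 lowest ratios where a segment reached 1%, *Traj18*, *Traj33*, and the 3 highest and 3 lowest productive shares. Others are named as members of a group or a contrast. V genes named as alike are the 2 with the highest Spearman's rho.

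Sequences and annotation came from NCBIM37 and GENCODE, and the RefSeq table of GRCm38.p6 served for names only. The build named in the submitters' notes and that of the sequences printed differ, and no coordinate was carried between them. Alternatives were other functionality classes, assignment filters, boundaries, the first or last part of each list, and a left-out segment. Python 3.11.15, numpy 2.4.6, pandas 2.3.3, scipy 1.17.1 and matplotlib 3.10.9 were used, and the interval calculations were tested on simulated data.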

Additional observations from a re-analysis of the deposited data

How the results depend on the processing

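Of 39 alternatives, 5 on V alleles could not move a value, since a single allele was called. Under the other 34 no result changed direction, and 20 moved a value by less than its counting interval. All of them reuse the same libraries, and some change few sequences, such as 4 WT and 1 SKG sequences with several *Traj* genes. The gene was also chosen by this contrast, so these counts do not show whether other libraries would give the same values. The exceptions follow, and beyond the boundary and the left-out segment, which act by construction, the cause was not tested. The distal difference of 8.68 points was 7.91 without *Traj56*, the segment whose share differed most, 4.87 with segments 1 to 20 as distal and 13.4 with segments 1 to 40. The difference in mean *Traj* number (-4.19) was -3.47 in unproductive sequences, -3.93 in all classes and -3.63 without *Traj56*. The excess over the median of the other genes (3.59 points) was 5.04 in unproductive sequences, 4.22 in all classes, 4.52 when assignments listing several V genes were kept, 4.10 without the most changed segment of each gene, 2.71 with segments 1 to 20 and 8.35 with segments 1 to 40. The difference in library share (-1.90 points) was -2.36 among productive and -1.35 among unproductive sequences.

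No paired analysis was possible because each genotype has 1 library and the labels carry no replicate numbers. Genotype and library cannot be told apart, and a spread between animals is missing from every interval. Assignments to *Trav9-2* came from IMGT/HighV-QUEST and rest on few bases, which are shown here from a C57BL/6 reference only. Beyond the allele calls, sequence variants of the mice used were not examined.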
